A study of Mus musculus with 6 samples.

Results

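The 8 genes described here are Slc6a9, a glycine transporter, and the genes that set which fast transmitter a neuron releases. The latter are Slc17a6, Slc17a7 and Slc17a8 for glutamate, Slc32a1, Gad1 and Gad2 for GABA, and Slc6a5 for glycine. All 8 were chosen by name, and their RPKM (reads per kilobase of exon, scaled to the reads on genes in that sample) was read in every sample. They are 8 of the 49568 gene names quantified. The samples came from the preBötzinger complex (preBötC), the brainstem site that generates the inspiratory rhythm, in mice at postnatal day 2. All 6 mice carried Dbx1CreERT2 and Rosa26tdTomato, and their dams had received tamoxifen while pregnant. There were 3 Dbx1 samples, drawn from somata with tdTomato, and 3 non-Dbx1 samples, drawn from neuronal somata without it. Each sample pooled 15 neurons aspirated by pipette from slices of a different mouse, so the values are averages over 15 cells. Recombination marks cells with a history of Dbx1 expression at the time of tamoxifen, and a cell whose locus did not recombine carries no label. The comparison asks whether neurons of Dbx1 descent differ in transmitter genes from their neighbours.

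A neuron becomes glutamatergic by loading glutamate into vesicles with a vesicular glutamate transporter (VGLUT), encoded by the Slc17a6 to Slc17a8 family. Inhibitory neurons make GABA from glutamate with the glutamic acid decarboxylases GAD67 (Gad1) and GAD65 (Gad2), gather glycine through the plasma membrane transporter GlyT2 (Slc6a5), and load both into vesicles with the same transporter, VGAT (Slc32a1). Embryonic Dbx1 progenitors give rise to V0 interneurons, a class that includes glutamatergic and inhibitory members, and the glutamatergic Dbx1 neurons of the preBötC are known as its rhythm-generating core.

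Slc17a6 (ENSMUSG00000030500) lies on the plus strand of chromosome 7 from 51622006 to 51671119 (GRCm38, GENCODE vM21), and Slc6a5 (ENSMUSG00000039728) on the same chromosome and strand from 49910146 to 49963856. Slc32a1 (ENSMUSG00000037771) lies on chromosome 2 from 158610767 to 158615748. Gad2 (ENSMUSG00000026787) lies on chromosome 2 from 22622205 to 22693874, and Gad1 (ENSMUSG00000070880) on the same chromosome from 70553072 to 70602014. Slc17a7 (ENSMUSG00000070570) lies on chromosome 7 from 45163949 to 45176142, Slc17a8 (ENSMUSG00000019935) on the minus strand of chromosome 10 from 89574020 to 89621253, and Slc6a9 (ENSMUSG00000028542) on chromosome 4 from 117834506 to 117875198. Counting ignored strand. Of the merged exon bases of Slc32a1, 24.9% overlapped the antisense gene Gm14205, whose RPKM was 0 in all 6 samples. Of those of Slc6a9, 38.6% overlapped B4galt2, Ccdc24 and Gm17114 together. The counting command given in the study's methods sets no rule of its own for reads in such stretches. They may have been counted for neither gene, so the levels of these 2 members, and the 0 of Gm14205, are uncertain. The other 6 members overlapped no other gene.

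Members of a family can share reads where their transcripts match. No window of 35 bases was shared between the GENCODE transcripts of Slc17a6, Slc17a7 and Slc17a8, between Gad1 and Gad2, or between Slc6a5 and Slc6a9. Only exact matches were searched, so reads aligned with mismatches are not covered. The longest exact runs shared by their coding sequences are shown, with positions counted from 1 at the A of the start codon. The run of Slc17a7 and Slc17a8, 17 bases, is not printed.
Slc17a6 from 268 and Slc17a7 from 244, 21 bases: aacctgggcgtggccatcgtg
Slc17a6 from 224 and Slc17a8 from 278, 25 bases: tcatgagcggcctcggcttctgcat
Gad1 from 1204 and Gad2 from 1180, 17 bases: cctcacaagatgatggg
Slc6a5 from 1465 and Slc6a9 from 958, 15 bases: cacaacaactgctac

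The 250 bases before the start of Slc17a6 and of Slc32a1, the vesicular transporters of the excitatory and of the inhibitory phenotype, are shown with E-boxes (CANNTG, the site of basic helix-loop-helix factors that act in neuronal fate) in capitals. They come from RefSeq on GRCm38.p6, both on the plus strand, the first of 2 entries for Slc17a6 and the sole entry for Slc32a1.
Slc17a6, chr7:51621580-51621829: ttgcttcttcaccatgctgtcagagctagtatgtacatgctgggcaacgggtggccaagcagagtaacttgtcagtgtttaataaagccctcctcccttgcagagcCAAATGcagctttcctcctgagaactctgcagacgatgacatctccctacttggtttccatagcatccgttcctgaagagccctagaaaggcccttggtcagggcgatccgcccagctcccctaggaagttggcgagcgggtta
Slc32a1, chr2:158610508-158610757: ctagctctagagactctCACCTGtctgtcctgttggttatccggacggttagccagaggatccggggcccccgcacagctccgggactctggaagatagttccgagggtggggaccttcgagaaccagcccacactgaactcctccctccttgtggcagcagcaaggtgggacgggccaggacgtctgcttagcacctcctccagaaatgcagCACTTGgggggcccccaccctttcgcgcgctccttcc
Slc17a6 held 1 E-box and Slc32a1 held 2, and 66.2% of the 32851 promoter windows of this length held at least 1. Neither window held the homeodomain core TAATTA on either strand, which 4.84% of windows held. The core bound by GATA-family zinc fingers, AGATAA, was also on neither strand, and 9.99% of windows held it. The second Slc17a6 entry (chromosome 7 from 51624387 to 51624636), which lies inside the gene and is not printed, held 2 E-boxes and 1 TAATTA. The windows were 53.2% and 62.4% G or C, where the median window was 52.4%.

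Depth ran from 6464675 to 9432958 reads on genes per sample, as recovered from the RPKM steps. Neuron markers were abundant in both groups, with 8 of 8 tested and a summed RPKM of 1357 to 1910 across the Dbx1 samples, against 1218 to 1752 across the non-Dbx1 samples. No marker of another cell type passed an FDR of 0.1 in limma. The lowest FDR was 0.708 among blood and vessel, 0.787 among oligodendrocyte and 0.912 among astrocyte markers. Only 1 of the 17614 genes tested passed that FDR, so this does not show that the groups were alike in these markers. At an unadjusted p under 0.05 in limma, 4 of 6 blood and vessel and 3 of 8 oligodendrocyte markers were lower in the Dbx1 samples, where 2.48% of all genes tested were. For astrocyte markers the number was 0 in either direction. Of 6 blood and vessel markers 1 was higher and 5 lower in the Dbx1 samples. All 4 haemoglobin genes listed had higher RPKM in every non-Dbx1 sample than in any Dbx1 sample, as did 5.24% of all genes tested. The groups overlapped for the vessel markers Pecam1, at most 0.507 RPKM, and Cldn5, highest in non-Dbx1 replicate 2 at 63.7. The 6 markers, mostly haemoglobin, summed to 89.7 to 505 across the Dbx1 samples, against 733 to 13947 across the non-Dbx1 samples, with replicate 1 the highest. Of 8 oligodendrocyte markers 7 were lower and 1 higher in the Dbx1 samples, with sums of 32.4 to 78.5 against 73.0 to 593, again highest in non-Dbx1 replicate 1. Astrocyte markers (2 higher and 7 lower of 9) summed to 483 to 699 against 507 to 1110. Most of each sum came from Aldoc, at 199 to 239 RPKM over the 6 samples, and Fabp7, at 205 to 812. Of the 9, 1 (Gfap) had every Dbx1 sample above and 1 (Slc1a3) every non-Dbx1 sample above, where 5.35% and 5.24% of all genes tested did. Microglial markers summed to at most 2.97 in any sample, and Itgam and Tmem119 were at 0 in all 6. The part of these cells in the results below was not tested. Each main result is also given without non-Dbx1 replicate 1, which leaves the marker RNA of the other samples in place. Astrocyte markers summed to 507 in that replicate, against 944 and 1110 in non-Dbx1 replicates 2 and 3. In those 2 replicates blood and vessel markers summed to 1262 and 733.

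Slc17a6 encodes VGLUT2, the main vesicular glutamate transporter of the brainstem. Its RPKM was 47.2, 128 and 54.9 in Dbx1 replicates 1, 2 and 3, and 31.9, 35.1 and 13.6 in non-Dbx1 replicates 1, 2 and 3. No non-Dbx1 sample reached the lowest Dbx1 sample, with Dbx1 replicate 2 far above the rest and non-Dbx1 replicate 3 the lowest. The nearest samples across the groups, 47.2 and 35.1 RPKM, had 95% Poisson counting intervals of 44.8 to 49.8 and 33.0 to 37.2, so depth did not limit their order. These intervals cover counting error only, since amplified reads are not independent molecules. Within a group the spread was wide, with the highest sample 2.71 times the lowest among the Dbx1 samples and 2.57 times among the non-Dbx1 samples.

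The other vesicular glutamate transporters were at or near 0. Slc17a7 (VGLUT1), known best from cortex and cerebellum, had an RPKM of 0.490 in Dbx1 replicate 1 and 0.935 in non-Dbx1 replicate 2, from 37 and 76 reads, and 0 in the other 4 samples. In those 4 samples 3 reads would have given 0.0335 to 0.0489 RPKM. Slc17a8 (VGLUT3), found in scattered neurons that often use another transmitter as well, had 0.757 RPKM in Dbx1 replicate 1 and 0 in the other 5 samples. Dbx1 replicate 1 was thus the sample with reads on all 3 transporter genes. Slc17a6 made up 97.4% to 100% of the summed VGLUT RPKM in every sample. Neither Slc17a7 nor Slc17a8 reached the 3 samples above 0 that the test required, so 6 of the 8 members were tested.

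**Figure D1:**
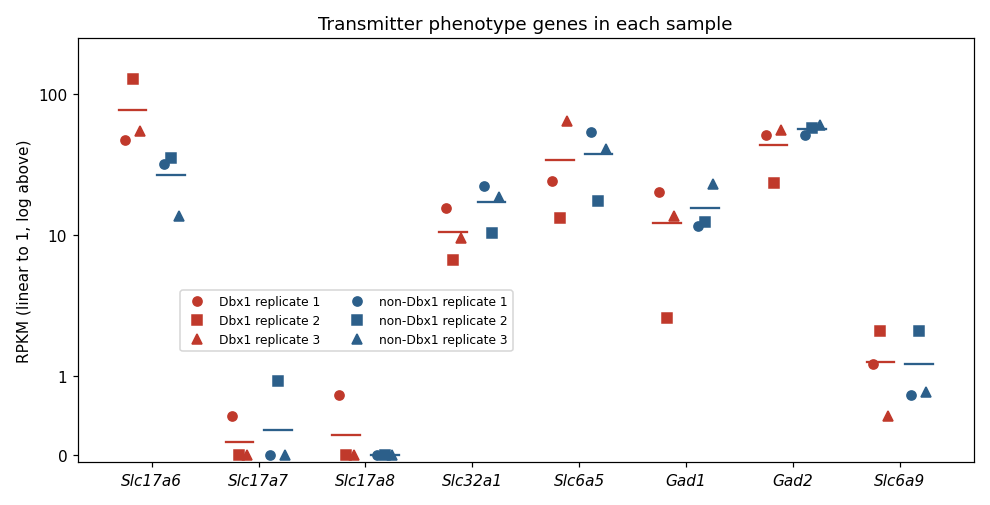
RPKM of the 8 members (vertical axis, linear up to 1 and logarithmic above) in each of 6 samples, with replicate numbers as symbols and group means as bars. Slc17a6 is the member whose groups do not overlap, and Dbx1 replicate 2 (red squares) is the highest sample for Slc17a6 and the lowest for Slc32a1, Slc6a5, Gad1 and Gad2.

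The 4 inhibitory genes were expressed in all 6 samples, Dbx1 samples included. RPKM of Slc32a1, the transporter that fills vesicles with GABA and glycine, was 15.5, 6.69 and 9.56 across the Dbx1 samples, against 22.4, 10.3 and 18.6 across the non-Dbx1 samples, in the order of their replicate numbers. The groups overlapped, because Dbx1 replicate 1 was above non-Dbx1 replicate 2. RPKM of Slc6a5, which marks glycinergic neurons, was 24.2, 13.1 and 64.2 against 53.6, 17.5 and 40.9. Its highest sample and its lowest were both Dbx1 samples.

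For the GABA-synthesising enzymes, RPKM of Gad1 was 20.3, 2.59 and 13.6 across the Dbx1 samples, against 11.7, 12.3 and 23.0 across the non-Dbx1 samples. Apart from Dbx1 replicate 2, the Gad1 values of the groups lay in the same range. RPKM of Gad2 was 50.9, 23.3 and 55.6 across the Dbx1 samples, against 50.9, 57.6 and 60.0 across the non-Dbx1 samples. Gad2 varied the least of the 8 members, with a coefficient of variation of 27.1% about a mean of 49.7 ± 13.5 RPKM (SD, n = 6), where Slc17a6 had 77.1%. For Gad2 the 5 samples other than Dbx1 replicate 2 lay between 50.9 and 60.0. That sample was the lowest of the 6 for all 4 inhibitory genes and the highest for Slc17a6.

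Slc6a9 (GlyT1) clears glycine from the extracellular space and is used by astrocytes as well as neurons. Its RPKM was 1.21, 2.09 and 0.487 across the Dbx1 samples, against 0.760, 2.10 and 0.799 across the non-Dbx1 samples, with full overlap. The part of astrocyte RNA in these values was not tested.

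Across all 17614 genes tested with limma on log2(RPKM + 1), 1 gene passed an FDR (Benjamini-Hochberg) of 0.1, which is 0.00568%, and no member did. That gene, D930028M14Rik, is not a member and is named because of its count. At an unadjusted p under 0.05, 1 of the 6 tested members was higher in the Dbx1 samples and 0 were lower, where 2.73% and 2.48% of all genes tested were. Likewise 1 of 6 members had every Dbx1 sample above every non-Dbx1 sample, as did 5.35% of all genes, and 0 of 6 had the reverse, as did 5.24%. The 1 member in each count was Slc17a6.

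The log2 fold change (L2FC, Dbx1 minus non-Dbx1) of Slc17a6 was 1.44 (standard error 0.466, 95% interval 0.38 to 2.51), and 3.36% of all genes tested had an absolute L2FC at least as large. Its group means were 76.7 ± 44.6 and 26.8 ± 11.6 RPKM (SD, n = 3). The difference did not pass the test (limma p = 0.0138, FDR = 0.870), and the exact two-sided permutation test gave p = 0.10, the smallest that 3 samples against 3 allow. Without Dbx1 replicate 2 the L2FC was 1.0, without non-Dbx1 replicate 3 it was 1.03, and without non-Dbx1 replicate 1, the sample with the highest blood and oligodendrocyte markers, it was 1.61. In these bulk samples, more neurons with the transcript and more transcript per neuron cannot be told apart.

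None of the inhibitory genes passed the test in either direction. The L2FC of Slc32a1 was −0.65 (standard error 0.415, 95% interval −1.60 to 0.30, limma FDR = 0.936), with means of 10.6 ± 4.47 and 17.1 ± 6.18 RPKM (SD, n = 3). For Gad2 it was −0.46 (95% interval −1.24 to 0.32, FDR = 0.941), for Gad1 −0.62 (−2.09 to 0.85, FDR = 0.953), and for Slc6a5 −0.29 (−1.64 to 1.06, FDR = 0.976). All 4 values were below 0. Without Dbx1 replicate 2 the L2FC was −0.07 for Gad2, −0.39 for Slc32a1, 0.14 for Gad1 and 0.22 for Slc6a5. Leaving out non-Dbx1 replicate 1 instead gave −0.53, −0.44, −0.79 and 0.04 in the same order. On the fold scale the intervals began at 0.329, 0.425, 0.235 and 0.321 times the non-Dbx1 level for Slc32a1, Gad2, Gad1 and Slc6a5, and ended at 1.23, 1.24, 1.80 and 2.09 times. For Slc6a9 the L2FC was 0.02 with a 95% interval of −1.15 to 1.19 (limma FDR = 0.999).

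**Figure D2:**
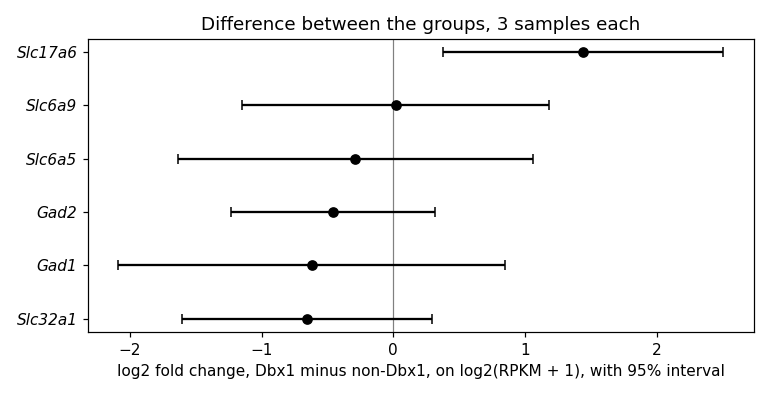
L2FC (horizontal axis, Dbx1 minus non-Dbx1, on log2(RPKM + 1)) of the 6 members tested, with 95% intervals from limma, 3 samples per group. The interval of Slc17a6 (0.38 to 2.51) lies above 0 before adjustment over all genes, and the other 5 intervals include 0.

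The ratio of excitatory to inhibitory genes was taken within each sample as the summed RPKM of Slc17a6, Slc17a7 and Slc17a8 over that of Slc32a1, Slc6a5, Gad1 and Gad2, and is given as a description with no test. It was 0.437, 2.80 and 0.384 in Dbx1 replicates 1, 2 and 3. In non-Dbx1 replicates 1, 2 and 3 it was 0.230, 0.368 and 0.0956. By these sums excitatory genes outweighed inhibitory ones in Dbx1 replicate 2 and in no other sample. They held 73.7% of the summed RPKM there, 27.8% and 30.4% in the other Dbx1 samples, and 8.72% to 26.9% in the non-Dbx1 samples. Whether a ratio exceeds 1 depends on the genes summed on each side. Slc17a6 over Slc32a1 alone was above 1 in every sample except non-Dbx1 replicate 3, where it was 0.731.

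The groups did not overlap, but the gap was narrow. The lowest Dbx1 ratio, 0.384, had a counting interval of 0.363 to 0.407, which overlapped that of the highest non-Dbx1 ratio, 0.368 (0.346 to 0.393). With either GENCODE length instead of the authors' exon lengths, the groups overlapped. Per kilobase of merged exons the lowest Dbx1 ratio was 0.223 and the highest non-Dbx1 ratio 0.240. Per kilobase of the longest coding transcript they were 0.265 and 0.284. Mean log2 ratios were −0.36 ± 1.60 and −2.32 ± 0.99 (SD, n = 3), a difference of 1.95. Without Dbx1 replicate 2 the difference was 1.03, and without non-Dbx1 replicate 1 it was 2.05.

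The separation depended on which inhibitory genes were used. With Slc17a6 over Slc32a1, the ratio of the 2 vesicular transporters, the Dbx1 samples ranged from 3.05 to 19.1 and the non-Dbx1 samples from 0.731 to 3.40, with overlap. With Gad1 and Gad2 alone below the line they ranged from 0.681 to 4.95 against 0.164 to 0.515, without overlap. With Slc6a5 alone they ranged from 0.856 to 9.76 against 0.333 to 2.06, with overlap.

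**Figure D3:**
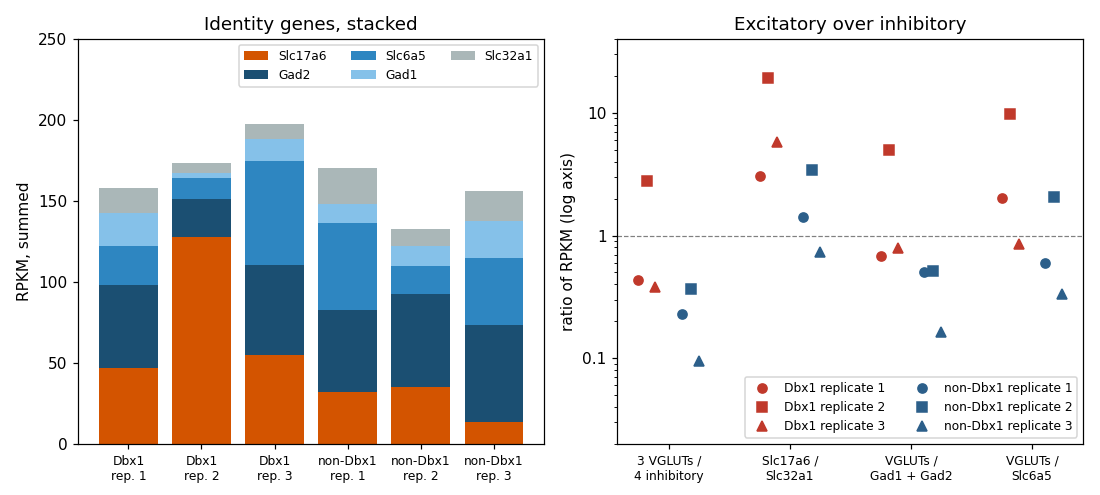
Left, RPKM of Slc17a6, Gad2, Slc6a5, Gad1 and Slc32a1 stacked for each sample. Right, ratios of excitatory over inhibitory RPKM on a log axis, by sample, with the dashed line at 1. Dbx1 replicate 2 has the highest ratio in each of the 4 forms, 2.80 in the first.

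Summed excitatory RPKM was 77.1 ± 44.2 across the Dbx1 samples, against 27.2 ± 11.9 across the non-Dbx1 samples (SD, n = 3). Summed inhibitory RPKM was 99.8 ± 49.5 and 126 ± 24.8, and its highest value, 143, was found in Dbx1 replicate 3 and in non-Dbx1 replicate 3 alike. The make-up of the inhibitory sum varied among samples of the same group. Gad2 gave 36.8% to 59.0% of it, Slc6a5 17.9% to 44.9%, Gad1 5.68% to 18.3% and Slc32a1 6.69% to 16.2%. The mean share of Slc6a5 was 31.8% ± 11.9 across the Dbx1 samples, against 28.4% ± 10.4 across the non-Dbx1 samples (SD, n = 3), a difference smaller than the SD within either group. Gad2 exceeded Gad1 in every sample, by 2.51 to 8.97 times on the RPKM scale, with the largest ratio in Dbx1 replicate 2.

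By mean RPKM over the 6 samples the members stood in the order Slc17a6 (51.8 ± 39.9), Gad2 (49.7 ± 13.5), Slc6a5 (35.6 ± 20.6), Gad1 (13.9 ± 7.20), Slc32a1 (13.8 ± 6.01), Slc6a9 (1.24 ± 0.701), Slc17a7 (0.238 ± 0.394) and Slc17a8 (0.126 ± 0.309; SD, n = 6). The place of Slc17a6 rested on Dbx1 replicate 2, the 1 sample of 6 in which it exceeded Gad2. Gad2 exceeded Slc6a5 in 4 of 6 samples and Gad1 exceeded Slc32a1 in 4 of 6, so these neighbours did not differ beyond their spread. Slc6a5 exceeded Gad1, Slc32a1 exceeded Slc6a9, and Slc6a9 exceeded Slc17a7 in 6 of 6. The order between genes also depends on the exon length used. Per kilobase of merged GENCODE exons the leading members were Gad2 (54.7), Slc6a5 (48.6), Slc17a6 (35.6) and Slc32a1 (13.8), and per kilobase of the longest coding transcript Gad2 (56.0), Slc6a5 (49.5), Slc17a6 (46.4) and Gad1 (24.6).

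Of 14 genes for glutamate synthesis, recycling and uptake 8 were higher and 6 lower in the Dbx1 samples (median L2FC 0.04, against 0.009 and 50.8% higher over all genes tested). At an unadjusted p under 0.05 in limma, 1 was higher and 0 were lower, where 2.73% and 2.48% of all genes tested were. That gene was Slc38a2 (SNAT2), an amino acid transporter that carries glutamine, with an RPKM of 20.6, 24.4 and 32.7 across the Dbx1 samples, against 7.96, 15.5 and 13.4 across the non-Dbx1 samples. Its groups did not overlap, but the L2FC of 1.04 did not pass the test (limma FDR = 0.870). Slc1a3 (GLAST), a glutamate uptake carrier of astrocytes and also on the astrocyte marker list, was 4.54, 4.18 and 4.53 against 4.64, 8.72 and 11.5 RPKM. Its groups were separated by the small gap between 4.54 and 4.64 (limma FDR = 0.936). Of the 14 genes, 1 thus had every Dbx1 sample above and 1 every non-Dbx1 sample above, where 5.35% and 5.24% of all genes tested did. The most abundant gene of the list was Got1, an aspartate aminotransferase, at 54.4 to 104 RPKM across the Dbx1 samples, against 68.8 to 104 across the non-Dbx1 samples (L2FC −0.06, limma FDR = 0.990).

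Of the 7 genes for GABA uptake and breakdown, Slc6a12 was at 0 in all 6 samples, and of the other 6, 3 were higher and 3 lower (median L2FC −0.12), with 0 at an unadjusted p under 0.05 in limma. Abat, the transaminase that breaks down GABA, was the most abundant at 21.5 to 30.1 RPKM across the Dbx1 samples, against 20.4 to 28.1 across the non-Dbx1 samples. Slc6a13 (GAT2), a GABA carrier known from meninges, had the largest L2FC, −0.68 (limma FDR = 0.946), with 0.224 to 0.503 RPKM against 0.0708 to 3.51. Of 7 genes for glycine synthesis, cleavage and transport 2 were higher and 5 lower (median L2FC −0.53), and again 0 had an unadjusted p under 0.05. Dld, a subunit of the glycine cleavage system that other dehydrogenase complexes share, was the most abundant at 56.6 to 98.7 RPKM against 65.7 to 96.0. Slc7a10 (Asc-1), an exchanger of glycine and D-serine, was 0.0615, 3.38 and 3.41 RPKM against 1.02, 1.26 and 14.8 (L2FC −0.61, limma FDR = 0.967).

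Of 12 genes for other transmitters 8 were tested, and 1 was higher and 7 lower (median L2FC −1.57), with 0 at an unadjusted p under 0.05 in limma. Dbh, the enzyme that makes noradrenaline, was at 0 in all 3 Dbx1 samples and at 11.8, 339 and 0 RPKM in the non-Dbx1 samples. It was above 0 in 2 samples and was not tested. Th, the first enzyme of catecholamine synthesis, was 0, 0.102 and 2.70 against 3.86, 114 and 0 RPKM (L2FC −2.36, limma FDR = 0.936).

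Transcription factors linked to excitatory or inhibitory fate in spinal cord and hindbrain were examined next. A place on either list does not mean that a factor is confined to neurons of that fate. Of 8 excitatory fate factors 3 were tested, and all 3 were higher in the Dbx1 samples, as were 50.8% of all genes tested. None had an unadjusted p under 0.05 in limma. Tlx3 and Pou4f1 were low, at no more than 2.16 and 2.93 RPKM in any sample, with overlap. Evx2, a homeodomain factor of V0 neurons, was 0.660, 4.40 and 11.2 RPKM across the Dbx1 samples, against 1.83, 0.0219 and 0.357 across the non-Dbx1 samples, with overlap (L2FC 1.60, limma FDR = 0.917). Evx1, which marks the excitatory V0 branch and was picked after its values were seen, was 0, 7.84 and 3.67 RPKM in the Dbx1 samples and 0 in all 3 non-Dbx1 samples. En1, a marker of inhibitory V1 neurons picked in the same way, was 7.19, 0 and 0.0548 against 9.55, 0.134 and 0. Dbx1 replicate 1, the Dbx1 sample without Evx1, had the highest Slc32a1 and Gad1 of its group, while replicate 3, with Evx1, had the highest Slc6a5 and Gad2, the highest inhibitory sum (143 against 111 RPKM in replicate 1) and the lowest ratio (0.384 against 0.437).

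Of 11 inhibitory fate factors 9 were tested, and 3 were higher and 6 lower (median L2FC −0.32). At an unadjusted p under 0.05, 1 was higher and 3 were lower, where 2.73% and 2.48% of all genes tested were, and none passed an FDR of 0.1. The groups did not overlap for 2 of the 9 with the Dbx1 samples above and for 3 with the non-Dbx1 samples above, where 5.35% and 5.24% of all genes did not. Gata2 and Gata3, which act in the inhibitory branch of V2 neurons, were 2 of those lower. Gata3 RPKM was 3.02, 0.0968 and 2.54 across the Dbx1 samples, against 29.0, 7.41 and 21.6 across the non-Dbx1 samples. Gata2 was 0.118, 0.219 and 0.203 against 2.78, 3.86 and 9.92 RPKM. The paper's own count test, unlike limma here, called Gata2 higher in the non-Dbx1 neurons. Neither gene's groups overlapped, with L2FC of −2.84 for Gata3 and −2.31 for Gata2 (limma FDR = 0.724 for both). Tal1, which acts with them in these neurons and in blood precursors, was 0.0657 to 0.236 against 0.485 to 2.74 RPKM. Haemoglobin RNA was higher in the same 3 samples, and its part was not tested. In non-Dbx1 replicate 1, the sample with the most haemoglobin RNA, Gata3 and Tal1 were the highest of all samples (Tal1 at 2.74, against 0.485 and 0.514 in the other non-Dbx1 samples), and Gata2 was the lowest of its group.

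The list was not uniform in direction. Lhx5, a LIM homeodomain factor, was 18.2, 9.98 and 16.4 RPKM across the Dbx1 samples, against 6.04, 5.61 and 5.24 across the non-Dbx1 samples, without overlap (L2FC 1.22, limma FDR = 0.804). Pax2, a paired-box factor of GABAergic interneurons, was 2.75, 3.95 and 5.16 against 1.11, 0.547 and 1.93, also without overlap (L2FC 1.19, limma FDR = 0.912). The paper also places Pax2 in ventral V0 neurons. Gbx1, a homeodomain factor of dorsal inhibitory neurons, was at or near 0 in the Dbx1 samples and in non-Dbx1 replicate 1, and at 3.56 and 4.03 RPKM in non-Dbx1 replicates 2 and 3 (L2FC −1.49, limma FDR = 0.912). Lhx1, the most abundant of the list, was 7.44, 28.8 and 9.52 against 25.8, 1.42 and 34.4 RPKM, with full overlap.

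**Figure D4:**
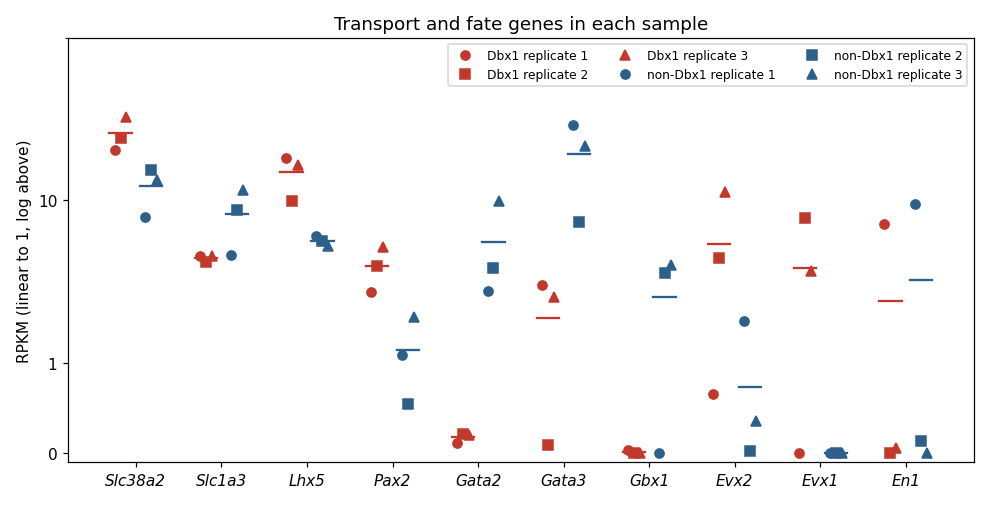
RPKM of 10 transport and fate genes (vertical axis, linear up to 1 and logarithmic above) in each sample, with group means as bars. Slc38a2, Lhx5 and Pax2 are higher in every Dbx1 sample, Slc1a3, Gata2 and Gata3 in every non-Dbx1 sample, and the groups overlap for Gbx1, Evx2, Evx1 and En1.

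Over the 6 samples, the genes most like Slc17a6 were Tmem169, Tmed9 and Ncam2, with a root mean square difference of 0.302, 0.330 and 0.365 on log2(RPKM + 1) after each gene was centred on its own mean, among 4424 genes with a mean of at least 10 RPKM. Tmem169 was 21.2, 35.4 and 22.4 RPKM across the Dbx1 samples, against 10.7, 9.41 and 5.97 across the non-Dbx1 samples. Tmed9, which sorts cargo between endoplasmic reticulum and Golgi, was 32.7, 56.9 and 22.9 against 25.7, 20.5 and 6.79, and Ncam2, a cell adhesion molecule, 12.5, 26.1 and 14.5 against 8.54, 9.08 and 6.18. Those most like Slc32a1 were Hsd17b10, Dbndd1 and Cby1, at 0.145, 0.179 and 0.179. Hsd17b10, a mitochondrial dehydrogenase, was 21.9, 7.68 and 13.8 RPKM against 33.5, 15.9 and 23.1, with the lowest value in Dbx1 replicate 2 as for Slc32a1. Among the 4424 genes the other members took places 356 (Gad2, at 0.448), 1859 (Gad1, at 0.634), 2232 (Slc6a5, at 0.675) and 4273 (Slc17a6, at 1.42) in likeness to Slc32a1. The measure reflects the size of the changes as well as their pattern. A gene flat over the 6 samples would stand at 0.555 from Slc32a1, nearer than Gad1 or Slc6a5. The places of these 2 genes therefore do not show whether they follow Slc32a1. All likeness values are descriptions over 6 samples that share depth and group structure.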

How the data were processed

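RNA-Seq was run on 3 Dbx1 and 3 non-Dbx1 samples of 15 neurons each, amplified as full-length cDNA. Per the labels and the study's methods, the authors aligned reads to mm10 with TopHat2, sorted them with SAMtools, counted them per gene name without strand with HTSeq, and divided by exon length and reads on genes to give the deposited RPKM, with no scaling between samples. The versions are not given in the sources used here. The recovered exon lengths were longer than merged GENCODE vM21 exons in 65.9% of 13954 genes compared and shorter in 11.2%, by a margin of 0.1 on the log2 scale, so levels of different genes depend on the length used.

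Whole reads were recovered from the RPKM steps (within 0.002 of a whole number) for 27065 of 27067 genes above 0. Where reads share a common factor, the true number may be a multiple. For Slc17a8, above 0 in 1 sample, the number is not fixed by this and is not printed. Groups were compared with limma 3.58.1 in R 4.3.3 (eBayes with trend) on log2(RPKM + 1), over 17614 genes above 0 in at least 3 samples, at an FDR of 0.1. The deposited values are RPKM, so this fit took the place of the authors' count test, and voom on the recovered reads was run as an alternative. L2FC on log2(RPKM + 1) understates changes of low genes. Single genes were also compared by an exact two-sided permutation test. The ratio's counting intervals (95%) used Poisson reads. Scripts were tested on simulated data.

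The members and lists were chosen with earlier results of these data known. All members are named, and from each list the gene of highest mean RPKM, those with an unadjusted p under 0.05, those with a mean of at least 1 RPKM whose groups did not overlap, and that of largest absolute L2FC with such a mean. For the marker lists, sums and counts stand in for most named genes, with Pecam1 and Cldn5 given as the vessel markers. Aldoc and Fabp7 are named for their part in the astrocyte sums, and Gfap and Slc1a3 because their groups did not overlap. Tlx3 and Pou4f1 are named as tested excitatory fate factors. The 3 genes most like Slc17a6 and Slc32a1 are also named. Alternatives were another pseudocount, other filters, size factors, quantile normalization, limma without trend, voom on recovered reads, a replicate block, leaving out each sample, other forms of the ratio and, chosen after seeing the data, 2 other exon lengths. Promoters of all 8 members matched in RefSeq, and 2 are printed. Python 3 with matplotlib drew the figures.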

Additional observations from a re-analysis of the deposited data

How the results depend on the processing

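With 3 samples per group, small differences in these genes could not be told from the spread between samples. The number of genes past an FDR of 0.1 was 1 in the reported fit and 0 with a pseudocount of 0.1, with no filter, with voom on recovered reads and with the replicate block (limma; 974, 777, 737 and 819 genes at an unadjusted p under 0.05). It was 3 with limma without the trend (D930028M14Rik, Cmbl and Gm25190, named because of their count), and 0 to 1 when each sample was left out. No member was past it in any of these. Samples with the same replicate number did not deviate together (correlations −0.107, 0.0248 and −0.0522), and the numbers do not pair the mice; with the replicate block the L2FC of Slc17a6 was 1.44 (FDR = 0.980). Slc17a6 stayed at 1.0 to 1.71, Slc32a1 at −0.96 to −0.39 and Gad2 at −0.68 to −0.07 across 15 alternatives each, and Slc6a5 at −0.88 to 0.22, Gad1 at −1.14 to 0.14 and Slc6a9 at −0.24 to 0.29. Signs reversed for Slc6a5 (0.22 without Dbx1 replicate 2, 0.04 leaving out non-Dbx1 replicate 1), for Gad1 (0.14 without Dbx1 replicate 2), and for Slc6a9: −0.0025 with a pseudocount of 0.1, −0.025 with quantile normalization, −0.009 with voom, −0.24 without Dbx1 replicate 2, −0.12 without non-Dbx1 replicate 1 and −0.11 without non-Dbx1 replicate 3. The cause was not tested. The difference in the log2 ratio was 1.79 to 2.19 under the other forms and exon lengths, and 1.03 to 2.46 when each sample was left out. Slc17a6 held place 1 of the level order with the authors' exon lengths and place 3 with either GENCODE length. Under size factors the numbers of genes higher and lower did not change in any of the 6 pathway and factor lists.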
